A study of Mus musculus with 12 samples.

Results

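Trex1 encodes the main exonuclease that degrades DNA in the cytosol, and it lies beside Atrip and Shisa5 on mouse chromosome 9. These 3 genes and 6 genes of cytosolic nucleic acid sensing, Mb21d1 (cGAS), Tmem173 (STING), Tbk1, Ikbke, Ifih1 and Mavs, were examined for binding of MOF (KAT8), the enzyme that acetylates lysine residues of histone H4. They are 9 of 21938 protein-coding genes in the annotation. A gene was given every MOF peak in its body or within 3 kb of any of its annotated start sites. The genes were selected on measured values, namely their peaks and fold enrichments in these same lists, so what follows at the 9 genes is a description and carries no test.

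The series profiled visceral white adipose tissue of C57BL/6 mice aged 8 weeks on a standard diet by chromatin immunoprecipitation and sequencing (ChIP-seq). Wild type animals (Mof+/+) were set against animals with 1 of the 2 copies of Mof (labelled Mof heterozygous, here Mof+/-). The heterozygous animals carried the loss in the whole body from conception, so a difference in the fat cannot be told apart from one that begins in another tissue. The labels describe 12 libraries in 6 groups of 2, with ChIP of MOF, ChIP of histone H3 and input DNA for each genotype. The data examined here were 2 lists of MOF peaks, 1 for each genotype, with no value per animal, so the variation among animals is unknown for every difference given here. Bulk tissue mixes adipocytes with immune and vascular cells, and fewer cells that carry a bound site cannot be told apart from less binding in each cell.

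DNA that reaches the cytosol is bound by cGAS, which makes the cyclic dinucleotide cGAMP. STING, a membrane protein of the endoplasmic reticulum, binds cGAMP and brings in the kinase TBK1, which activates the transcription factor IRF3 and with it the type I interferon genes. TREX1 removes the DNA that starts this pathway, and its loss in mice and people causes inflammation driven by interferon. IKKε, the product of Ikbke, is a kinase related to TBK1. MDA5, the product of Ifih1, senses long double-stranded RNA, and the mitochondrial adaptor MAVS passes that signal to the same kinases. ATRIP is the partner of the checkpoint kinase ATR, and SHISA5 is a membrane protein of the endoplasmic reticulum linked to p53-dependent cell death.

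The sequences below show where MOF signal was highest in Trex1. They also show what lies at, and mostly before, a start of sensor and kinase genes whose start sites did or did not fall under a peak. They were read from the RefSeq assembly GRCm38.p6, the build of the peak lists, and are written 5′ to 3′ on the strand of the gene. The first pair gives 30 bases around the Mof+/+ summit (chr9:109058720-109058749, minus strand) and around the Mof+/- summit (chr9:109058546-109058575, minus strand), both in the coding sequence of Trex1. Capitals mark the summit base with 5 bases on each side.
Trex1, Mof+/+ summit: ccagaccgcCCCGTGTGGTGgacaagctct
Trex1, Mof+/- summit: cacagccttGCTGCCTTGTGgcacacaacg

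RefSeq promoter windows, from 250 bases before to 50 bases after a start, were found for 8 of the 9 genes, 13 windows in all. For 5 of them the longest stretch free of annotated untranslated bases is shown. The stretches are those of Mb21d1 (chr9:78443238-78443487, minus strand), Tbk1 (chr10:121586788-121587044, minus strand), Ikbke (chr1:131279607-131279813, minus strand), Ifih1 (chr2:62646212-62646505, minus strand) and Mavs (chr2:131233813-131234062, plus strand). They lie upstream of the start, except that Tbk1 runs a few bases past its RefSeq start and Ifih1 runs into the gene, whose outermost start is at 62646255. Of these windows, those of Mb21d1, Tbk1 and Ikbke met a Mof+/+ peak, and those of Ifih1 and Mavs did not. Capitals mark matches, on either strand, to the ISRE core GAAANNGAA, AP-1 TGANTCA, NRF1 core GCGCATGC or ETS CGGAAG letters.
Mb21d1: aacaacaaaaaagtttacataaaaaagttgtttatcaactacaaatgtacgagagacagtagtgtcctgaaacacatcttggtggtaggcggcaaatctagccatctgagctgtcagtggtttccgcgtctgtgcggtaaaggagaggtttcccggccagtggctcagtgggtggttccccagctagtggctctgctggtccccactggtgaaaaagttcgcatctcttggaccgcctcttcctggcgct
Tbk1: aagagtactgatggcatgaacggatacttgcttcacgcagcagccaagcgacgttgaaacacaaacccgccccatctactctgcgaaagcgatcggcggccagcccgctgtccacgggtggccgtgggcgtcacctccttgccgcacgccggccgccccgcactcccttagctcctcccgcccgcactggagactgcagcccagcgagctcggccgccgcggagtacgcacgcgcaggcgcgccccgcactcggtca
Ikbke: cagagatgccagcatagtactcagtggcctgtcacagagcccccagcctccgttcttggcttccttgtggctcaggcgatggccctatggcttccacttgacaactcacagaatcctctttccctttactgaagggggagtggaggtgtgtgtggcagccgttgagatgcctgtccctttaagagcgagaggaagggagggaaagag
Ifih1: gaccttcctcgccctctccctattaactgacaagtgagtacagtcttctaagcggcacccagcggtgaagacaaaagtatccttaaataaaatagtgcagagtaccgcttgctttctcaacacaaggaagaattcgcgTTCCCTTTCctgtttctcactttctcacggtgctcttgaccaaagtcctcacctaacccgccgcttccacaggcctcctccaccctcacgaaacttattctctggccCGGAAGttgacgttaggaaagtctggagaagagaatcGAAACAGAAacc
Mavs: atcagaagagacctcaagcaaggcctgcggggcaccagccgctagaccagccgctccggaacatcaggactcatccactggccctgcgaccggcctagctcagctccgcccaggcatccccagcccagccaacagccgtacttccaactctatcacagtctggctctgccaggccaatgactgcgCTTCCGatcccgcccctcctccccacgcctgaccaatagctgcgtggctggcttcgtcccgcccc

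The Ifih1 window held 2 matches to the ISRE core, 1 of them downstream of the start, and 1 to the ETS letters. At least 1 match to the ISRE core was found in 8.56% of all 32851 promoter windows, and to the ETS letters in 16.9%. Mavs and Tbk1 each held 1 ETS match, that of Tbk1 in the part not shown. Ikbke held 1 AP-1 match, also in the part not shown, and 7.81% of all windows had one. Of the windows not shown, 1 of Shisa5 (chr9:109054616-109054915) held 2 ISRE core matches and another of Shisa5 (chr9:109050907-109051206) held 1 ETS match, both under the Mof+/+ peak at Trex1. The 299 bp Mof+/- peak in Trex1 held 1 ISRE core match. Mb21d1 had no match to any of the 4, and the NRF1 letters, in 2.71% of all windows, were absent from all 13. The windows also differed in CpG sites, which numbered 37 in Tbk1, 19 in Mavs, 16 in Mb21d1, 14 in Ifih1 and 4 in Ikbke against a median of 7 over all windows. The window of Mavs, without a peak, thus held more CpG sites than those of Ikbke and Mb21d1, which had one. Such matches are letters in a window and not evidence of a bound factor.

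Of the 9 genes, 8 had a Mof+/+ peak and 3 had a Mof+/- peak. Across all protein-coding genes, 44.5% had a Mof+/+ peak by the same rule and 1.89% had a Mof+/- peak. With peaks counted only within 1 kb of a start site, the counts were 8 and 1 of the 9 genes, against 41.0% and 1.32% of all protein-coding genes. Since the genes were chosen with these peaks in view, nothing is read from the excess. The 8 genes shared 7 distinct Mof+/+ peaks, because 1 peak spans Trex1, Atrip and Shisa5, and the 3 genes with a Mof+/- peak share 1 peak. Mavs was the gene without a peak in either list.

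In all there were 19773 Mof+/+ and 731 Mof+/- peaks. Counts of fragments were recovered from the deposited fold enrichment (fragments over the summit against the caller's background, each with 1 added) and its Poisson p-value. At the median a Mof+/+ summit held 16 fragments and a Mof+/- summit 14. The lowest background was 3.52 and 2.26 fragments respectively, a ratio of 1.56. It was shared by 9862 Mof+/+ and 406 Mof+/- peaks, and so is a floor of each list rather than a value measured at each site. At that lowest background the smallest summit called held 11 fragments in both lists. Within 1 kb of a start site, 5 of 10 adipocyte markers had a Mof+/+ peak, against 41.0% of all protein-coding genes. Adipoq and Plin1 were among them, while Fabp4, Lep, Cidec, Pparg and Retn had none. By ChIP-qPCR in visceral fat, the study did report MOF at the promoter of the main Pparg isoform, with less in Mof+/- animals. Such Mof+/+ peaks were found for 8 of 10 B cell, 7 of 9 T cell, 1 of 10 macrophage and 1 of 10 endothelial markers. Among all these markers 1, of B cells, had a Mof+/- promoter peak, against 1.32% of all protein-coding genes. The part that the mix of cells plays in the values below was not tested.

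At the Trex1 locus, the Mof+/+ peak was among the widest and highest of its list. It ran from 109050494 to 109061181 on chromosome 9, a width of 10688 bp against a median of 609 bp. Its fold enrichment of 12.2 ranked 4 of 19773 against a median of 3.40, its p-value ranked 6 and its width ranked 9. The summit, at 109058735, held 62 fragments (exact 95% Poisson interval 47.5 to 79.5) over a background of 4.17. The −log10 p-value there was 49.98 and the −log10 q-value 43.97. Poisson intervals in this text cover counting error only, and not the spread between animals.

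The peak covered the 3 genes unequally. All 1802 bp of Trex1 (109057933 to 109059734, minus strand) and both of its start sites lay under it. The summit fell in the Trex1 coding sequence, 186 bp past the first base of the start codon and 516 bp downstream of the nearer start site. Of Atrip, which ends at the same base as Trex1 on the same strand, 3249 of 16192 bp (20.1%) were covered. Of the 9 Atrip start sites, 1 lay under the peak, and the outermost, at 109074124, was 12943 bp away from it. A transcript of Atrip reads through Trex1, so the summit is also annotated as an Atrip untranslated region. Of Shisa5, which runs toward Trex1 on the plus strand and ends before it, 7284 of 19213 bp (37.9%) were covered. The peak took in 14 of the 19 Shisa5 start sites, between 109051096 and 109055940, while the outermost start at 109038565 was 11929 bp away. The outermost starts of Atrip and Shisa5 were thus outside the peak, as were the RefSeq promoter windows there, which held 26 CpG sites for Atrip and 13 for Shisa5.

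**Figure D1:**
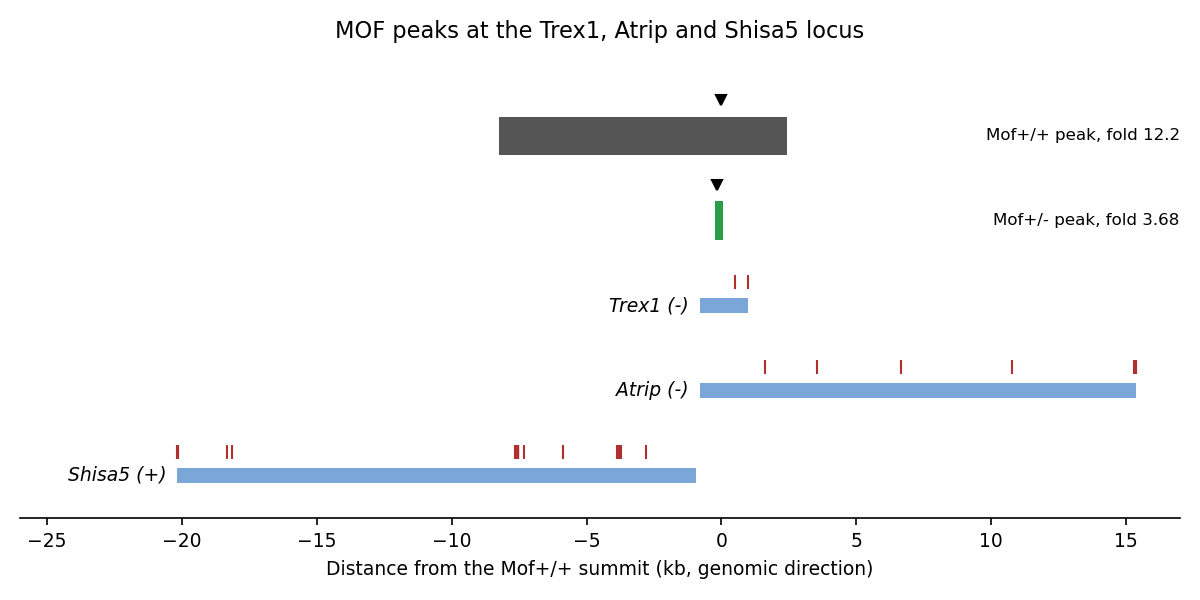
MOF peaks (upper bars, triangles at the summits) and gene bodies (lower bars, ticks at annotated start sites) against distance from the Mof+/+ summit in kb. The 10688 bp Mof+/+ peak spans Trex1 and parts of Atrip and Shisa5, and the 299 bp Mof+/- peak lies inside Trex1.

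In the Mof+/- list the locus kept a short peak of low enrichment. It ran from 109058511 to 109058809, 299 bp, and lay wholly within the 942 bp coding sequence of Trex1. Its summit at 109058561 was 174 bp from the Mof+/+ summit, 360 bp past the start codon. The summit held 11 fragments (5.49 to 19.7) over a background of 2.26, a fold enrichment of 3.68, with a q-value of 0.0316. The 11 fragments were the fewest called at that background, and 77.3% of Mof+/- peaks had a higher fold enrichment. The peak touched no Trex1 start site, the nearer being 442 bp away. It covered 2.80% of the Mof+/+ peak, and 16.6% of Trex1, 1.85% of Atrip and 0% of Shisa5.

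Fold enrichment at the locus was 3.31 times higher in the Mof+/+ list. A summit with the Mof+/+ fold enrichment at the lowest Mof+/- background would hold 38.7 fragments (29.6 to 49.7), beside the 11 fragments (5.49 to 19.7) seen. Both values belong to a locus chosen for them and are given as a description.

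The fall at Trex1 was then set beside other peaks. Of the Mof+/+ peaks on assembled chromosomes, 111 of 14507 under 1 kb wide overlapped a Mof+/- peak (0.765%, 95% Wilson interval 0.636 to 0.921). The share was 3.95% (3.38 to 4.60) between 1 and 2 kb, 13.7% (11.9 to 15.8) between 2 and 5 kb and 39.8% (31.8 to 48.5) at 5 kb and more, where it was 51 of 128. Peaks of the Trex1 class therefore met a Mof+/- peak most often. Among the 481 Mof+/+ peaks that did, the median share of the peak covered was 35.7%, and 4 peaks had a lower share than Trex1. The median ratio of Mof+/+ to Mof+/- fold enrichment was 0.996 (quartiles 0.782 and 1.30). A higher ratio than the 3.31 of Trex1, which rests on 11 Mof+/- fragments and is thus uncertain in rank, was found at 1 peak. Within the 51 such peaks of 5 kb and more, the median share covered was 19.5% and the median ratio 1.21 (0.955 and 1.70), with 37 of 51 ratios above 1. The peak with the higher ratio, picked out after its values were seen, starts at position 113410695 of chromosome 12, is 19198 bp wide and went from a fold enrichment of 23.0 to 3.99. A Mof+/- peak must pass the caller's threshold to enter these ratios, so they leave out sites where the signal fell below it.

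The 5 Mof+/+ peaks most like the Trex1 peak in width and fold enrichment, among those that overlapped a Mof+/- peak, were at Zfp36l2, Igf2bp3, Sp9, Isl2 and Cd74. Likeness was the Euclidean distance in log2 width and log2 fold enrichment over 1 list, and ranged from 0.186 to 0.528. Zfp36l2, which encodes an mRNA decay protein, had a peak of 9802 bp with a fold enrichment of 11.1, and 5.42 in the Mof+/- list. Igf2bp3, an RNA-binding protein gene, had 11337 bp and 14.9, and 8.36 in the Mof+/- list. Cd74 encodes the invariant chain of MHC class II, and its peak of 12777 bp went from 8.85 to 4.33. The ratios of these 3 were 2.04, 1.79 and 2.04, all below that of Trex1, though with 11 Mof+/- fragments at Trex1 the order is uncertain. Sp9 and Isl2, which encode transcription factors, had ratios of 1.09 and 1.79. The Mof+/- peaks covered 12.0% of the peak at Zfp36l2, 71.3% at Igf2bp3, 52.5% at Sp9, 83.4% at Isl2 and 3.39% at Cd74, so Cd74 was the nearest to the 2.80% of Trex1.

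**Figure D2:**
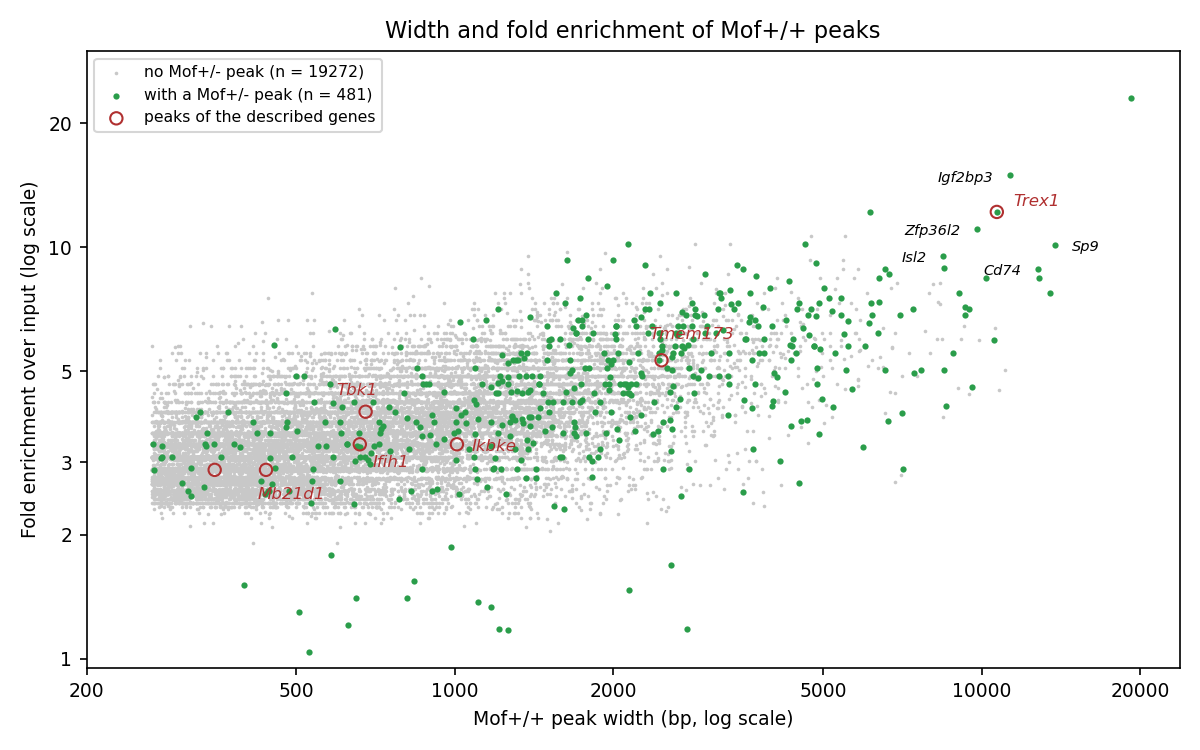
Width and fold enrichment of every Mof+/+ peak on assembled chromosomes, both on log scales, with peaks that overlap a Mof+/- peak in green and those of the described genes circled. The Trex1 peak (10688 bp, fold 12.2) sits at the upper right with the 5 named peaks most like it, while the other circled peaks have folds between 2.88 and 5.31.

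Around the locus, peaks were few and low. Among the other protein-coding genes within 100 kb of the Trex1 peak, Col7a1, Ucn2, Tma7, Ccdc51 and Fbxw21 had no peak in either list. Pfkfb4, which encodes a glycolytic regulator, had 2 Mof+/+ peaks with fold enrichments of 3.54 and 2.56, and Plxnb1, a semaphorin receptor gene, had 1 of 3.98. Neither had a Mof+/- peak. The gene nearest the outermost Atrip start, Tma7, ends beside it.

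The sequence under the Trex1 peak was not unusual for the list. Its GC content was 53.3%, against a median of 52.4% over all Mof+/+ peaks. It held 16.0 CpG sites per kb against a median of 24.5, and 64.1% of peaks had more. Part of the fragmentation was by CviKI-1, an enzyme specific for GC between a purine and a pyrimidine. Such sites numbered 26.3 per kb here against a median of 21.2, with 27.3% of peaks above it. The part of cutting density in the fragment counts was not tested. The other peaks of the described genes spanned a wider range, from 40.4% GC at Mb21d1 to 66.0% at Tbk1.

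Outside the locus, the genes of the sensing pathway had 6 Mof+/+ peaks with fold enrichments from 2.88 to 5.31, and no Mof+/- peak. Mb21d1 (annotated as Cgas, chromosome 9, minus strand), the DNA sensor, had 1 peak from 78443387 to 78443824. It was 438 bp wide with a fold enrichment of 2.88 and held 12 fragments (6.20 to 21.0). The peak lay upstream of the gene, 150 bp from the nearest start site, and 76.7% of Mof+/+ peaks had a higher fold enrichment. No other protein-coding gene has a start within 1 kb of it.

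Tmem173, the gene for the adaptor STING (chromosome 18, 35733679 to 35740554, minus strand), had 2 peaks. The wider ran from 35738430 to 35740897, 2468 bp, with a fold enrichment of 5.31 and 23 fragments (14.6 to 34.5), and 6.43% of Mof+/+ peaks had a higher value. A further peak inside the gene, from 35735704 to 35736053, was 350 bp wide with a fold enrichment of 2.88 and 12 fragments (6.20 to 21.0). All 10 annotated Tmem173 start sites lay under these peaks, which together covered 36.0% of the gene. The nearest Mof+/- peak was 90682 bp from a start site.

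Among the kinase genes, Tbk1 had a peak over its outermost start, from 121586577 to 121587253 on chromosome 10, 677 bp wide. Its fold enrichment was 3.98 with 17 fragments (9.90 to 27.2), and 3 of 7 start sites lay under it. Ikbke had a peak of 1009 bp from 131278884 to 131279892 on chromosome 1, with a fold enrichment of 3.32 and 14 fragments (7.65 to 23.5). That peak covered 1 of 7 start sites, with its summit 63 bp downstream of it. The fragment intervals of the Tbk1, Ikbke and Tmem173 peaks overlapped one another, and an order among them cannot be drawn from counts of this size.

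On the RNA side, Ifih1, the MDA5 gene, had a peak inside the gene and not over a start. It ran from 62645251 to 62645910 on chromosome 2, 660 bp, with a fold enrichment of 3.32 and 14 fragments (7.65 to 23.5). Its summit lay in coding sequence 507 bp downstream of the nearest start site, and 0 of 5 start sites were covered, the closest being 243 bp away. Mavs had no peak. The nearest Mof+/+ peak was 20220 bp from a Mavs start, with a fold enrichment of 2.89.

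**Figure D3:**
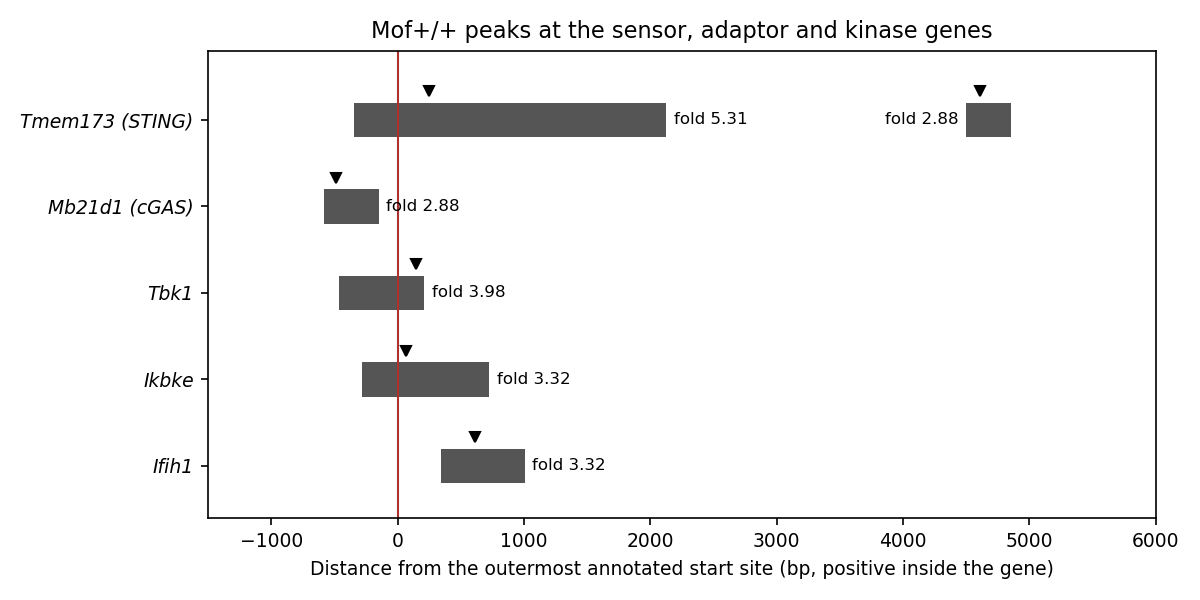
Mof+/+ peaks (bars, triangles at the summits) of the genes outside the Trex1 locus, against distance in bp from each gene's outermost start site (vertical line), positive inside the gene. The wider peak of Tmem173 and the peaks of Tbk1 and Ikbke span the start, the narrower Tmem173 peak lies inside the gene, that of Mb21d1 lies upstream of it, and that of Ifih1 lies inside the gene.

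Whether these peaks would have been seen in the Mof+/- list depends on depth. A summit of the same fold enrichment at the lowest Mof+/- background would hold 8.38 fragments (4.19 to 14.8) at Mb21d1 and at the lower Tmem173 peak, and 9.82 (5.24 to 16.7) at Ikbke and Ifih1. These 4 values are under the 11 fragments of the smallest Mof+/- summit called there, while their intervals reach above it. At Tbk1 the value was 12.0 (6.87 to 19.4), just above 11. The higher Tmem173 peak would hold 16.3 (10.2 to 24.6), and its lower bound also reached below 11. The intervals of all 6 peaks thus held 11. The absence of a Mof+/- peak at the 6 genes outside the locus does not show an absence of binding.

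**Figure D4:**
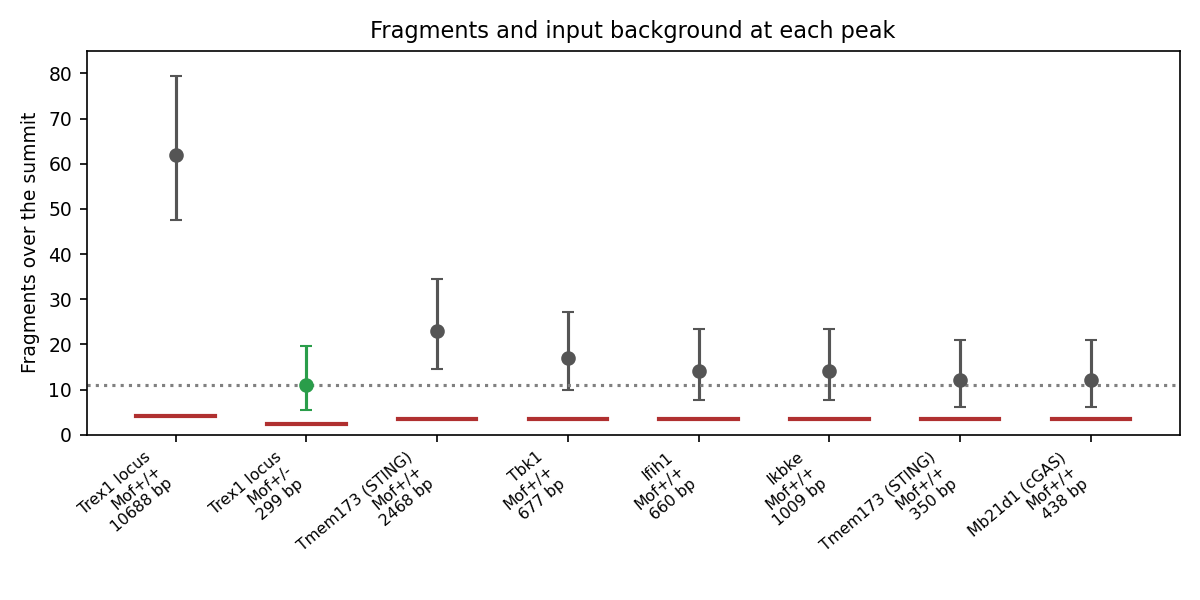
Fragments over the summit of each peak of the described genes (points, with exact 95% Poisson intervals) and the caller's background (red bars), Mof+/+ in grey and Mof+/- in green, with a dotted line at 11 fragments, the fewest called at the lowest Mof+/- background. The Mof+/+ summit at Trex1 holds 62 fragments, and every other summit holds 23 or fewer.

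Wider lists of the pathway were counted by the same rule, against the 44.5% and 1.89% of all protein-coding genes. Of 19 genes on the DNA side, which are sensors, nucleases and cofactors, 16 had a Mof+/+ peak, and Ifi204, Dnase1l3 and Polr3a had none. On the RNA side 8 of 9 had one. All 12 genes of the shared signal, from TRAF adaptors to IRF and NF-κB factors, had one. Of 13 genes of interferon output and response, 8 had one, and the interferon gene Ifnb1, the response genes Ifit1 and Mx1 and the chemokine genes Cxcl10 and Ccl5 had none. In the ATR and ATRIP checkpoint 11 of 13 had one, and Clspn and Etaa1 had none.

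Over all 66 listed genes, 55 (83.3%) had a Mof+/+ peak and 3 (4.55%) a Mof+/- peak. Without the described genes these were 48 of 58 (82.8%) and 1 of 58 (1.72%). The lists were not matched to other genes in length, start sites or expression, so the share is a count beside the background and not a result about the pathway. Among the listed genes with a Mof+/+ peak, the median highest fold enrichment was 4.35 on the DNA side, 3.90 on the RNA side, 3.98 in the shared signal, 3.63 in output and response and 3.83 in the checkpoint. It was 3.98 over all lists and 3.98 (quartiles 3.38 and 4.87) over all 9773 protein-coding genes with a peak.

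High values in the lists after the Trex1 peak were those of Samhd1 and Ifnar2 at 6.64, Rnaseh2b at 5.75 and Tmem173 at 5.31. SAMHD1 breaks down deoxynucleotides, RNASEH2B is a subunit of the enzyme that removes ribonucleotides from DNA, and IFNAR2 is a chain of the type I interferon receptor. Samhd1 had 8 peaks, the highest with 29 fragments (19.4 to 41.6), and no Mof+/- peak. The listed genes with a Mof+/- peak were Trex1, Atrip and Chek1, the gene for the kinase activated by ATR. At Chek1 the Mof+/- peak (36726792 to 36727104 on chromosome 9) had a fold enrichment of 4.91 with 15 fragments (8.40 to 24.7). The Mof+/+ peak there had 3.09, also with 15 fragments, over a background of 4.17. Fold enrichment was thus higher in the Mof+/+ list at Trex1 and higher in the Mof+/- list at Chek1, where the fragment counts were equal and the background differed.

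**Figure D5:**
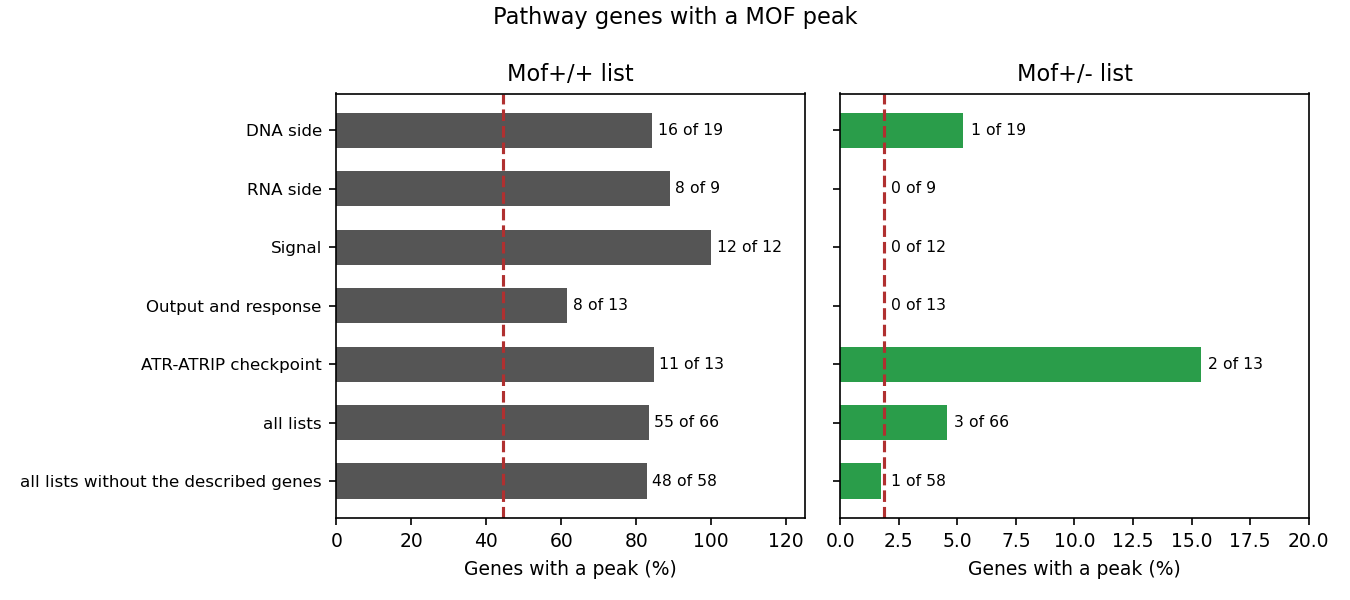
Share of the genes of each pathway list, in percent, with a peak in the Mof+/+ (left) and Mof+/- (right) list, with counts beside the bars and dashed lines at the 44.5% and 1.89% of all protein-coding genes. Each list is above the line in the Mof+/+ panel, and in the Mof+/- panel the genes with a peak are Trex1, Atrip and Chek1.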

How the data were processed

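MOF ChIP, H3 ChIP and input libraries were made from visceral white adipose tissue of both genotypes. The authors aligned reads to GRCm38 through snakePipes, as their methods state, and called peaks with MACS2 (version 2.1.1.20160309.3 in the submitters' processing notes) against input at a q-value of 0.1. Whether libraries were pooled first is not given in the sources used here. The fold enrichment is a ratio deposited by the authors. The summit's Poisson p-value was deposited beside it as −log10. A further deposited score of the caller is the −log10 of the q-value. The summit offset was used as a position, and column 5 was not used. The series' design text speaks of 2 control and 3 Mof+/- animals and the labels of 2 libraries each, and the MOF antibody of the labels differs from that in the study's reporting summary. Libraries of H3 were not used here.

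Positions count from 1 on GRCm38. Genes came from GENCODE mouse release M21, and no peak passed the end of its chromosome. Peaks overlapped at 1 bp or more. Fragments and background were solved from fold enrichment and p-value as whole numbers within 0.001 of the −log10 p, which succeeded for 99.98% and 99.45% of peaks, and the solver was tested on simulated data. Width classes and retained peaks cover assembled chromosomes. No test was run, since 1 list per genotype gives no replicate values. The genes and gene lists were chosen with earlier results of these data known. Named besides the 9 genes were listed genes with a Mof+/- peak or without a Mof+/+ peak, the 5 with the highest fold enrichment (1 of which is not reported here), protein-coding genes within 100 kb of the Trex1 peak and the 5 peaks most like it. Alternatives were other windows, start sites, thresholds and overlaps. Python 3.11.15, pandas 2.3.3, scipy 1.17.1 and matplotlib 3.10.9 were used.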

Additional observations from a re-analysis of the deposited data

How the results depend on the processing

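Of 45 alternatives to the counts, shares and ranks given, 34 stayed within 1.5 times the value given or within its interval and 11 did not. At a q-value of at most 0.001, 5 of the 9 genes had a Mof+/+ peak, with Mb21d1, Ikbke and Ifih1 lost. The share of all protein-coding genes was 34.2% at that threshold. With peaks counted only within 1 kb of a start site, 1 of the 9 genes, Trex1, had a Mof+/- peak in place of 3, against 1.32% of all protein-coding genes. At a q-value of at most 0.01 or 0.001 the Trex1 locus had 0 Mof+/- peaks, and 0% of the Mof+/+ peak at Trex1 was covered. At either threshold 0 of the 9 genes and 1 of the 66 listed pathway genes had a Mof+/- peak. The shares of all protein-coding genes were 1.54% and 1.03% respectively. By width in place of fold enrichment the Mof+/+ peak at Trex1 ranked 9. With 1 p-value threshold for both lists, the weakest of the Mof+/- list, 7 of the 9 genes had a Mof+/+ peak, against 38.9% of all protein-coding genes. No paired analysis was possible because the lists, 1 for each genotype, carry no replicate numbers, and leaving out a replicate was not possible for the same reason. The low number of fragments per summit, 16 and 14 at the median, and the lower Mof+/- background limit what a missing peak can show.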
